A study of Mus musculus with 47 samples.

Results

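The genes that build fatty acids and store them as triglycerides in the liver were followed here as one module of 34 genes. The module was defined by gene symbol, and all 34 members had a probe on the array and passed the filter on dim probes, out of 21742 genes tested among 37074 gene names on the array. For members with several probes, the probe with the highest mean log2 signal stood for the gene. A total of 32 members were above background on all 47 arrays. The exceptions were Elovl7, above background on 45 arrays, and Cidea, on 31 arrays, which comprised every male array and 2 of 6 arrays in each female group.

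Hepatic transcriptomes were measured on one-colour Agilent arrays from 6-month-old male (M) and female (F) mice of the C57BL/6J background. The mice were either Pxr+/+ littermates (WT, titled PxrWT) or carried a whole-body deletion of Pxr (Pxr-/-, titled PxrKO), the gene of the xenobiotic-sensing nuclear receptor officially named Nr1i2, and all had Pxr+/- mothers. From 5 weeks of age they were housed with mice of their own sex and genotype. Each sex and genotype was given either plain tap water (CTRL) or water with vancomycin at 0.5 g/L plus ampicillin and neomycin at 1 g/L each (ATB) for 2 weeks, and livers were taken 6 h after lights on (ZT6). The 8 groups held 6 mice each, except male Pxr-/- controls with 5, and mice came from a pair of cages per group that the labels do not identify, so p-values treat cage mates as independent.

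In the liver, excess carbohydrate is turned into fat. Citrate exported from mitochondria is cleaved to acetyl-CoA, which acetyl-CoA carboxylase and fatty acid synthase convert to palmitate with the help of NADPH. Palmitate is then elongated and desaturated, esterified to glycerol and stored in lipid droplets, and the transcription factors SREBP-1c (from Srebf1) and ChREBP (from Mlxipl) are known to raise most genes of the route after feeding, under insulin and glucose respectively. Liver fat metabolism differs between male and female mice, in part through the sex-specific rhythm of growth hormone.

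Groups of members were formed by role. Transcriptional control held Srebf1, Mlxipl and Thrsp (a lipogenic nuclear protein). Supply of acetyl-CoA and NADPH held Acly (ATP citrate lyase), Acss2 (acetyl-CoA synthetase), Slc25a1 (the mitochondrial citrate carrier), Me1 (malic enzyme), and G6pdx and Pgd (the NADPH-forming dehydrogenases of the pentose phosphate pathway). Malonyl-CoA and palmitate synthesis held Acaca and Acacb (acetyl-CoA carboxylases) and Fasn (fatty acid synthase). Desaturation held Scd1 and Scd2 (stearoyl-CoA desaturases), Fads1 (delta-5 desaturase) and Fads2 (delta-6 desaturase). Elongation held Elovl1, Elovl2, Elovl5, Elovl6 and Elovl7 (condensing enzymes for different chain lengths) and Hsd17b12 (the ketoacyl-CoA reductase of the same cycle). Triglyceride synthesis held Gpam (which adds the first acyl chain to glycerol phosphate), Agpat2 (which adds the next), Lpin1 and Lpin2 (phosphatidate phosphatases), Dgat1 and Dgat2 (which add the last), and Mogat1 (monoacylglycerol acyltransferase). Lipid droplets and lipolysis held Pnpla2 (adipose triglyceride lipase), Pnpla3 (a droplet-associated acylhydrolase), Cidea and Cidec (which enlarge droplets) and Plin4 (a droplet coat protein).

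Windows at an annotated start are shown for Fasn and for the 3 members with a listed window whose levels followed it most closely from mouse to mouse (Acaca, Elovl6 and Acly). They are also shown for Fads2 and Hsd17b12, the members called between the sexes under all 4 conditions. Each sequence runs 5′ to 3′ on the gene's strand from 250 bases before to 50 bases after the start in RefSeq (GRCm38.p6). Capitals mark matches on either strand to CCAAT (the NF-Y box), GGGCGG (the Sp1 box), CACGTG (an E-box), TCACNCCAC (a sterol regulatory element) or TTCNNNGAA (a STAT5 element).
Fasn (chr11:120824498-120824797, minus strand): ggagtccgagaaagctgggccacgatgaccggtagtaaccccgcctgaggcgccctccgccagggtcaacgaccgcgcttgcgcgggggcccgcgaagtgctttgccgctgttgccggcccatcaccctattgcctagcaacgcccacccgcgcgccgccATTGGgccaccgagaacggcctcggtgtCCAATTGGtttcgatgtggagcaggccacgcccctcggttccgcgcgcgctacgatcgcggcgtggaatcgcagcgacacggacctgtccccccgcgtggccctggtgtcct
Acaca (chr11:84195188-84195487, plus strand): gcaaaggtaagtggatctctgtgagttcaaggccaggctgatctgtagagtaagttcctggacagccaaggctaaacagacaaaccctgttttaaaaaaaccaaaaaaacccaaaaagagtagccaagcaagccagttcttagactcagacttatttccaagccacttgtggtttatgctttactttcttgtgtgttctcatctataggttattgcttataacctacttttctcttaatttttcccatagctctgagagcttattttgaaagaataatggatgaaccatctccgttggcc
Elovl6 (chr3:129532136-129532435, plus strand): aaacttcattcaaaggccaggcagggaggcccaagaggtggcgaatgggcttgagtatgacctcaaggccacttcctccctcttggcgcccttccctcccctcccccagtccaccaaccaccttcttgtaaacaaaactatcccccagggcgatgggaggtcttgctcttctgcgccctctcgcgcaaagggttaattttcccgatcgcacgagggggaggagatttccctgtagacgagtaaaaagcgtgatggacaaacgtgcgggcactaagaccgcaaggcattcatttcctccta
Acly (chr11:100527951-100528250, minus strand): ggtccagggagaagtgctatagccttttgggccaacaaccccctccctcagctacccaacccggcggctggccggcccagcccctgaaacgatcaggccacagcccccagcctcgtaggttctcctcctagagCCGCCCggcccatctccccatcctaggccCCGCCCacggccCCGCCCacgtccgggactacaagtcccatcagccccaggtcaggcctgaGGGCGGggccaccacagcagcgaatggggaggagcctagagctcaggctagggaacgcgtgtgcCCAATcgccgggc
Fads2 (chr19:10101454-10101753, minus strand): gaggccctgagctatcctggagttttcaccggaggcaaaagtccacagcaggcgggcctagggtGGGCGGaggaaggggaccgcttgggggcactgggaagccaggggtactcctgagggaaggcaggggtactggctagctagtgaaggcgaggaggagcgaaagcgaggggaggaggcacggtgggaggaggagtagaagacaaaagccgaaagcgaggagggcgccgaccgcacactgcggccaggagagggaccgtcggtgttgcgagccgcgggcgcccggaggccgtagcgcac
Hsd17b12 (chr2:94157860-94158159, minus strand): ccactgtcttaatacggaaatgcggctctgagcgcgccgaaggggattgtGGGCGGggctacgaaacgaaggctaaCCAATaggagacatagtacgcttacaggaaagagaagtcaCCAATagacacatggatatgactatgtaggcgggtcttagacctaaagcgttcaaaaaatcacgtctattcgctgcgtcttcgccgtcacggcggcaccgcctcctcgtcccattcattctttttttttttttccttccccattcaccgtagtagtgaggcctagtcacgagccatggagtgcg
The Fasn window held 3 CCAAT matches, of which a pair overlap on opposite strands, and no other searched motif. Acly held 1 CCAAT and 4 GGGCGG matches, Hsd17b12 held 2 CCAAT and 1 GGGCGG, Fads2 held 1 GGGCGG, and the Acaca and Elovl6 windows held none of the 5 strings. Windows were found for 28 of the 34 members, and 18 of these 28 (64.3%) held CCAAT against 41.1% of 27025 genes with a window. GGGCGG was in 18 (64.3%, against 38.2%), CACGTG in 4 (14.3%, against 8.09%), TCACNCCAC in 1, Mlxipl (3.57%, against 1.44%), and TTCNNNGAA in 0 of 28 (against 9.55%). These matches are descriptions of letters in 1 window per start and not of factor binding. Which start is used in these livers was not tested. A window without a match, as for Acaca, does not show that the gene's promoter lacks it.

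As a check of the arrays, the 75th percentile of raw signal lay between 306 and 492.5 and the median background between 15 and 21, with 31090 to 34477 of 56605 probes above background. All 16 hepatocyte markers were above background on all 47 arrays, and the sex-linked genes did not overlap between arrays labelled male and female. The probe for Nr1i2 gave differences of -0.28 to -0.57 between Pxr-/- and WT mice but was called in none of the 4 comparisons, and its position relative to the deleted part is not known. The 6 mice of a group lay on 6 slides, the 5 male Pxr-/- controls on 5 of them, and each group was spread over 3 wash batches, with 1 to 3 mice per group in a batch. In bulk liver, fewer cells of a type and less RNA per cell cannot be told apart.

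Levels below are log2 signals after removal of the wash batch and normalization, and a difference is a difference of log2 group means ± SE from a limma model over all 47 arrays. A gene was called when its p-value, adjusted over all tested probes, was at most 0.05 and its fold change above 1.2. Within a group, mice differed least in Hsd17b12 (median within-group SD 0.14) and most in Lpin1 and Pnpla3 (1.17 and 1.18).

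Sex was the only one of the 3 factors for which members were called with all 8 groups in the model. The question was whether males and females differed within each genotype and treatment. A total of 13 members were called in at least 1 of the 4 comparisons, with 27 calls in all. Of these, 5 (Hsd17b12, Mogat1, Cidea, Cidec and Plin4) were higher in males and 8 (Fads1, Fads2, Elovl2, Elovl5, Elovl7, Dgat1, Dgat2 and Pnpla3) were lower in males, and 21 were called in none. In WT controls 5 members were higher and 3 lower in males, where 2.18% of all genes tested were called higher and 29.9% lower. In WT ATB mice the counts were 2 and 1 (all genes 3.44% and 9.03%), in Pxr-/- controls 2 and 3 (2.45% and 13.6%), and in Pxr-/- ATB mice 3 and 8 (2.54% and 23.2%). In either direction, 8, 3, 5 and 11 of the 34 members were called in the same order. The shares of all genes were 32.1%, 12.5%, 16.1% and 25.8%. The members' share was thus below that of all genes except in Pxr-/- ATB mice. The 9 members of transcriptional control and of acetyl-CoA and NADPH supply had no call in any of these comparisons, nor did Acaca, Acacb, Fasn, Scd1 or Scd2. Cidea passed the filter on dim probes through male arrays alone, so that its place among the genes tested depended on a higher level in males. Without it, 12 members and 24 calls were left. Leaving out single mice moved the count of 3 in WT ATB mice to 1 without male replicate 1, and the count of 5 in Pxr-/- controls to 3 without male replicate 4, 5 or 6.

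The high background of genes lower in males moved with the normalization. The log2 difference between males and females had a median over all genes of -0.20, -0.04, -0.13 and -0.17 in the 4 comparisons, in the order WT control, WT ATB, Pxr-/- control and Pxr-/- ATB, and of about 0.01 after quantile normalization, which removes shifts of a whole array. In the same order, the calls over all genes were 473 higher and 6501 lower, 748 and 1963, 532 and 2963, and 553 and 5048. After quantile normalization they were 1524 and 1821, 1384 and 1796, 1314 and 1365, and 1476 and 1377. The members' counts after quantile normalization were 6 higher and 1 lower, 3 and 1, 2 and 2, and 4 and 5, and after scaling each array to its 75th percentile 8 and 0, 5 and 1, 3 and 2, and 6 and 5. All 27 calls kept their direction without any single mouse and in the alternatives that gave them a value, which were 10 for 22 of the calls and 9 for the 5 of Cidea and Elovl7. These genes had no test when only probes above background on all 47 arrays were kept. The 3 members called lower in males in WT controls, Fads1, Fads2 and Dgat2, were not called with the 75th percentile scaling.

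The polyunsaturated fatty acid desaturases were lower in males. Fads2, which takes the first desaturation step from linoleic and alpha-linolenic acid, was called under all 4 conditions. In WT controls, its log2 level ran from 11.76 to 12.26 (median 11.85) in males and from 12.27 to 12.50 (median 12.32) in females, so that the highest male lay just under the lowest female. In Pxr-/- ATB mice it ran from 11.72 to 12.12 (median 11.85) in males and from 12.38 to 12.78 (median 12.55) in females, again with no overlap. The difference was -0.46 ± 0.10 (adjusted p = 0.000585) in WT controls and -0.69 ± 0.10 (adjusted p = 1.53e-06), 1.62-fold lower in males, in Pxr-/- ATB mice. In Pxr-/- controls the 5 males were at 11.63, 11.81, 11.88, 11.88 and 11.88 and females ran from 12.20 to 12.71 (median 12.35), which do not overlap (-0.57 ± 0.11, adjusted p = 0.000146). WT ATB mice overlapped, with males from 11.89 to 12.22 (median 12.06) and females from 11.97 to 12.64 (median 12.38), at a difference of -0.30 ± 0.10 (adjusted p = 0.0478). Of the 5 tested probes of Fads2, 3, 1, 1 and 5 were called in WT control, WT ATB, Pxr-/- control and Pxr-/- ATB mice. The calls in WT mice were lost when each array was scaled to its 75th percentile (-0.18, adjusted p = 0.151 in controls and -0.20, adjusted p = 0.119 with ATB), and the call in WT controls also with quantile normalization (-0.25, adjusted p = 0.0508). The call in WT ATB mice was lost too without the filter on dim probes (adjusted p = 0.0736), with the slide as a block (adjusted p = 0.0533) and with only the groups compared in the model (adjusted p = 0.0958). With 1 mouse left out in turn, that call passed in 4 of 12 cases.

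Fads1, the desaturase that follows Fads2 on the way to arachidonic and eicosapentaenoic acid, was called in 3 comparisons. In WT controls its log2 level ran from 11.79 to 12.34 (median 12.18) in males and from 12.53 to 12.85 (median 12.58) in females. In Pxr-/- ATB mice males ran from 12.01 to 12.34 (median 12.19) and females from 12.54 to 12.91 (median 12.76). Neither pair of groups overlapped, with differences of -0.49 ± 0.10 (adjusted p = 0.000379) and -0.56 ± 0.10 (adjusted p = 8.33e-05). These values are those of the brightest probe. The dimmer probes were not called in WT controls (-0.20, adjusted p = 0.42, and -0.19, adjusted p = 0.126). Pxr-/- controls overlapped, with the 5 males at 11.86, 11.93, 12.03, 12.18 and 12.32 and females from 12.04 to 12.71 (median 12.47), at a difference of -0.37 ± 0.11 (adjusted p = 0.0168), and quantile normalization took that difference to -0.25 (adjusted p = 0.102). Scaling to the 75th percentile gave -0.18 (adjusted p = 0.172) in WT controls and -0.17 (adjusted p = 0.249) in Pxr-/- controls. In WT ATB mice the difference was -0.21 and not called. Of the 3 tested probes of Fads1, 1, 2 and 3 were called in WT control, Pxr-/- control and Pxr-/- ATB mice. The stearoyl-CoA desaturases Scd1 and Scd2 were called in no comparison.

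**Figure D1:**
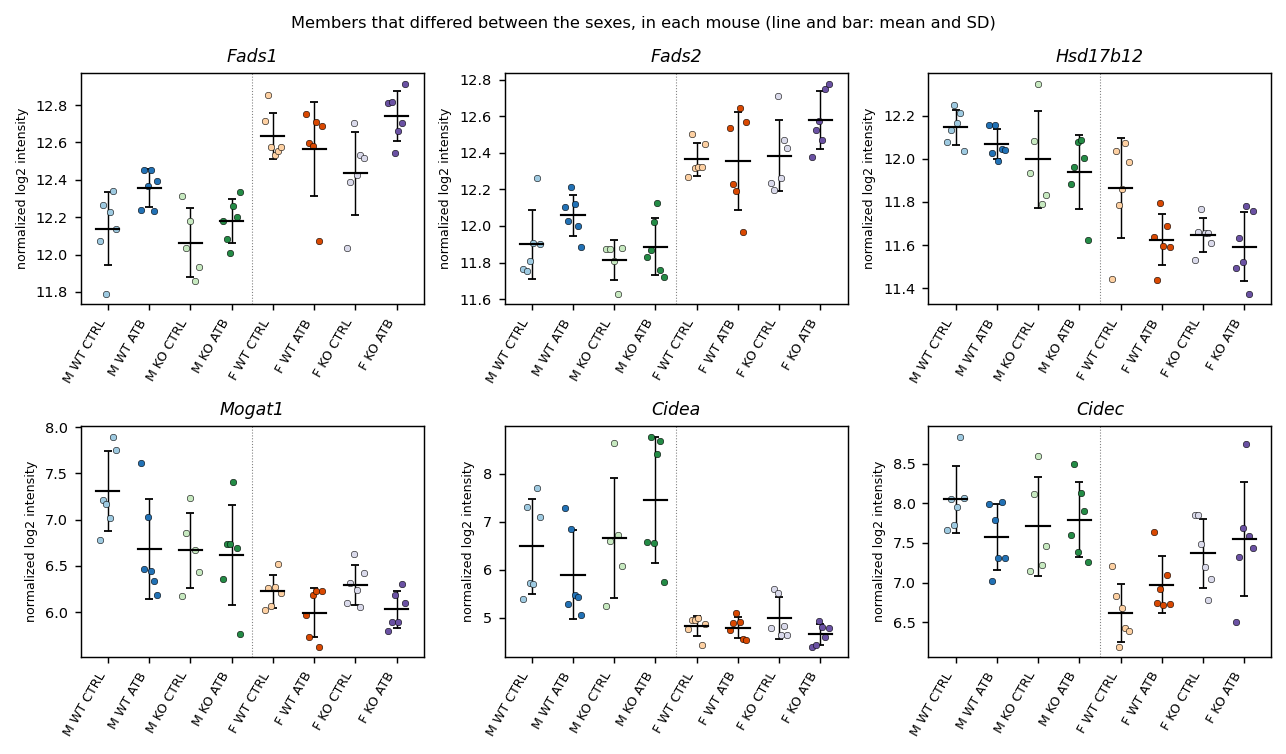
Log2 signal (normalized, wash batch removed) of Fads1, Fads2, Hsd17b12, Mogat1, Cidea and Cidec in each mouse of the 8 groups. Points are mice and bars are group means with SD. Fads1 and Fads2 sit lower in males, whereas Hsd17b12, Mogat1, Cidea and Cidec sit higher in males in WT controls.

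Among the elongation genes, the direction depended on the enzyme. Hsd17b12 was higher in males in all 4 comparisons. In WT ATB mice its log2 level ran from 11.99 to 12.16 (median 12.04) in males and from 11.44 to 11.80 (median 11.62) in females, and in Pxr-/- controls the 5 males were at 11.79, 11.83, 11.93, 12.08 and 12.35 while females ran from 11.53 to 11.77 (median 11.66). Groups did not overlap in these 2 comparisons and overlapped in the others. The differences were 0.28 ± 0.09 (adjusted p = 0.0185) in WT controls, 0.45 ± 0.09 (adjusted p = 0.000663) in WT ATB, 0.35 ± 0.10 (adjusted p = 0.0112) in Pxr-/- controls and 0.35 ± 0.09 (adjusted p = 0.00549) in Pxr-/- ATB mice. A second, dimmer probe of Hsd17b12, assigned on the array to a different transcript, was not called in any of them (0.11, 0.35, -0.02 and -0.05). With only the groups compared in the model, the adjusted p was 0.0519 in WT controls and 0.106 in Pxr-/- controls.

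Elovl2 and Elovl5, the elongases of polyunsaturated acyl chains, were called lower in males in Pxr-/- ATB mice and in no other comparison, while the interaction tests of such differences gave no call. Elovl2 ran from 13.41 to 13.97 (median 13.81) in these males and from 13.99 to 14.68 (median 14.55) in the females, with no overlap. The difference was -0.70 ± 0.14 (adjusted p = 0.000174), or 1.63-fold lower. In the other 3 pairs of groups the Elovl2 difference was 0.07, -0.11 and 0.00 (WT control, WT ATB and Pxr-/- control). Elovl5 ran from 13.57 to 14.64 (median 14.07) in Pxr-/- ATB males and from 14.57 to 14.99 (median 14.91) in females, which overlapped at the ends, with a difference of -0.80 ± 0.18 (adjusted p = 0.000818). The call was made by 2 of 3 Elovl5 probes. Elovl7, a dim probe on these arrays, had the 5 male Pxr-/- controls between 4.79 and 5.78 (median 4.99) and the females between 5.43 and 6.35 (median 5.78). With ATB, Pxr-/- males ran from 4.74 to 5.53 (median 4.94) and females from 5.46 to 5.82 (median 5.63). It was lower in males in both comparisons, -0.69 ± 0.19 (adjusted p = 0.0106) in controls and -0.64 ± 0.18 (adjusted p = 0.00815) with ATB, from group ranges that overlapped. The latter was -0.50 (adjusted p = 0.0542) after quantile normalization and the former -0.28 (adjusted p = 0.0728) after normexp background correction and -0.66 (adjusted p = 0.0682) with only the groups compared in the model. Elovl1 and Elovl6 were called in no comparison.

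In triglyceride synthesis, Mogat1 was called higher in males and the DGAT genes lower, though the DGAT calls depended on the normalization. Mogat1 in WT controls ran from 6.78 to 7.90 (median 7.19) in males and from 6.02 to 6.52 (median 6.23) in females, so that every male lay above every female. The difference was 1.08 ± 0.21 (adjusted p = 0.000144), 2.11-fold higher. It was smaller and with overlapping groups in WT ATB mice (0.69 ± 0.21, adjusted p = 0.0247) and Pxr-/- ATB mice (0.58 ± 0.21, adjusted p = 0.0341), and not called in Pxr-/- controls (0.38). The adjusted p of Mogat1 in Pxr-/- ATB mice was 0.0543 without the filter on dim probes and 0.0579 with only the groups compared in the model. With 1 mouse left out in turn, Mogat1 passed in 4 of 12 cases in Pxr-/- ATB mice and in 8 of 12 in WT ATB mice. Dgat2 in WT controls ran from 15.38 to 16.17 (median 15.88) in males and from 16.07 to 16.43 (median 16.20) in females, and in Pxr-/- ATB mice from 15.30 to 16.13 (median 15.93) and from 16.01 to 16.41 (median 16.18). Dgat1 in Pxr-/- ATB mice ran from 8.81 to 9.30 (median 8.97) in males and from 9.18 to 9.36 (median 9.26) in females. Dgat2 was lower in males in WT controls (-0.40 ± 0.14, adjusted p = 0.0248) and Pxr-/- ATB mice (-0.37 ± 0.14, adjusted p = 0.0413), and Dgat1 in Pxr-/- ATB mice (-0.27 ± 0.09, adjusted p = 0.0299). All 3 DGAT differences came from overlapping groups and were not called after quantile normalization (-0.24, adjusted p = 0.137, -0.24, adjusted p = 0.149, and -0.05, adjusted p = 0.724). They were also not called with the 75th percentile scaling (adjusted p = 0.614, 0.75 and 0.954) or normexp (0.124, 0.143 and 0.846). The authors' log2 values gave adjusted p of 0.0502, 0.0651 and 0.144 in the limma model. With 1 mouse left out in turn, the calls passed in 9, 5 and 7 of 12 cases. Gpam in WT controls ran from 13.63 to 15.89 (median 14.55) in males and from 13.12 to 14.51 (median 14.16) in females by its brightest probe, which was not called (0.60 ± 0.25, adjusted p = 0.0571), whereas its dimmer probe was called higher in males (0.96, adjusted p = 0.0161). Agpat2, Lpin1 and Lpin2 were called in no comparison.

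Among the members, lipid droplet genes gave the largest called differences in both directions. Cidea in WT controls ran from 5.40 to 7.69 (median 6.42) in males and from 4.44 to 5.00 (median 4.91) in females. In Pxr-/- ATB mice males ran from 5.74 to 8.76 (median 7.50) and females from 4.40 to 4.94 (median 4.69). No male overlapped a female in either. In Pxr-/- controls the 5 males were at 5.25, 6.09, 6.60, 6.73 and 8.63 and females ran from 4.64 to 5.60 (median 4.81), with overlap. Only 2 of 6 arrays of each female group were above background, so the female level was an upper limit on the other 4. With each female array set to no less than the lowest level of a probe above background on that array, males were at least 3.07-fold higher in WT controls, 3.13-fold in Pxr-/- controls and 6.35-fold in Pxr-/- ATB mice (adjusted p = 0.00461, 0.0131 and 8.48e-06 in the model of the measured values). In WT ATB mice Cidea was not called (adjusted p = 0.109). Since only male arrays brought Cidea past the filter, these values are a description and not an independent test.

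Cidec in WT controls ran from 7.66 to 8.84 (median 8.00) in males and from 6.19 to 7.21 (median 6.55) in females without overlap (1.43 ± 0.27, adjusted p = 0.000109, 2.69-fold higher), and it was not called in the other 3 comparisons (0.60, 0.34 and 0.25). Plin4 in the same WT controls ran from 9.02 to 10.74 (median 9.63) in males and from 7.94 to 9.34 (median 8.60) in females (1.14 ± 0.40, adjusted p = 0.0254), with overlap. This call passed in 9 of 12 cases with 1 mouse left out in turn. Plin4 was not called in the other comparisons, and its sign was not the same in all of them (0.58 in WT ATB, -0.53 in Pxr-/- controls and 0.94 in Pxr-/- ATB mice). Pnpla3 went the other way. It ran from 5.34 to 7.74 (median 5.99) in Pxr-/- ATB males and from 6.64 to 10.14 (median 8.25) in females, a difference of -2.09 ± 0.64 (adjusted p = 0.014), 4.27-fold lower. A second Pnpla3 probe was called lower in males in all 4 comparisons (-1.20, -1.21, -1.42 and -1.73), where the brighter probe gave -1.55, -0.76, -1.33 and -2.09. The call of the brighter probe was lost with scaling to the 75th percentile (-2.14, adjusted p = 0.0529) and with normexp background correction (-1.56, adjusted p = 0.0526). Pnpla2 was called in no comparison.

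Of 9 tested adipocyte markers, Cfd and Car3 were called higher in males in all 4 comparisons, Adrb3 in Pxr-/- controls and Retn in Pxr-/- ATB mice, and none was called lower. The other markers did not move one way, and 4, 1, 3 and 5 of the 9 had lower means in males in WT control, WT ATB, Pxr-/- control and Pxr-/- ATB mice, with a median difference over the list of 0.05, 0.20, 0.06 and -0.0024. The mean log2 level of the list ran from 8.29 to 9.20 over males and from 7.77 to 8.47 over females. Adipoq, the defining adipocyte gene, was above background on 9 of 47 arrays and was not tested. Group means of Car3 ran from 15.99 to 16.99. They lay between those of the hepatocyte markers Apob (15.44 to 15.73) and Ass1 (17.40 to 17.74), so its difference cannot be assigned to adipocytes. Of 14 macrophage markers, 13, 7, 6 and 0 were called lower in males in the same order. The part of adipocytes or macrophages in the differences between the sexes was not tested. Within wash batches, 26 of the 27 calls had the same sign in each of the 3 batches, the exception being Mogat1 in WT ATB mice, with 0.91, 0.71 and -0.04.

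Other members whose probes disagreed were Slc25a1, Acaca and Acacb. The second Slc25a1 probe was called higher in males in WT ATB mice (0.45, adjusted p = 0.000476), where the brighter probe ran from 12.13 to 12.71 (median 12.50) in males and from 11.84 to 12.38 (median 12.20) in females and was not called (0.29 ± 0.11, adjusted p = 0.0699). In Pxr-/- ATB mice 2 of 6 Acaca probes and 1 of 3 Acacb probes were called lower in males. The brightest probes were not. Acaca ran from 12.34 to 12.96 (median 12.55) in males and from 12.70 to 13.31 (median 13.03) in females, and Acacb from 12.43 to 13.14 (median 12.78) and from 12.78 to 13.39 (median 13.24). The differences were -0.45 ± 0.22 (adjusted p = 0.121) for Acaca and -0.36 ± 0.25 (adjusted p = 0.283) for Acacb.

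**Figure D2:**
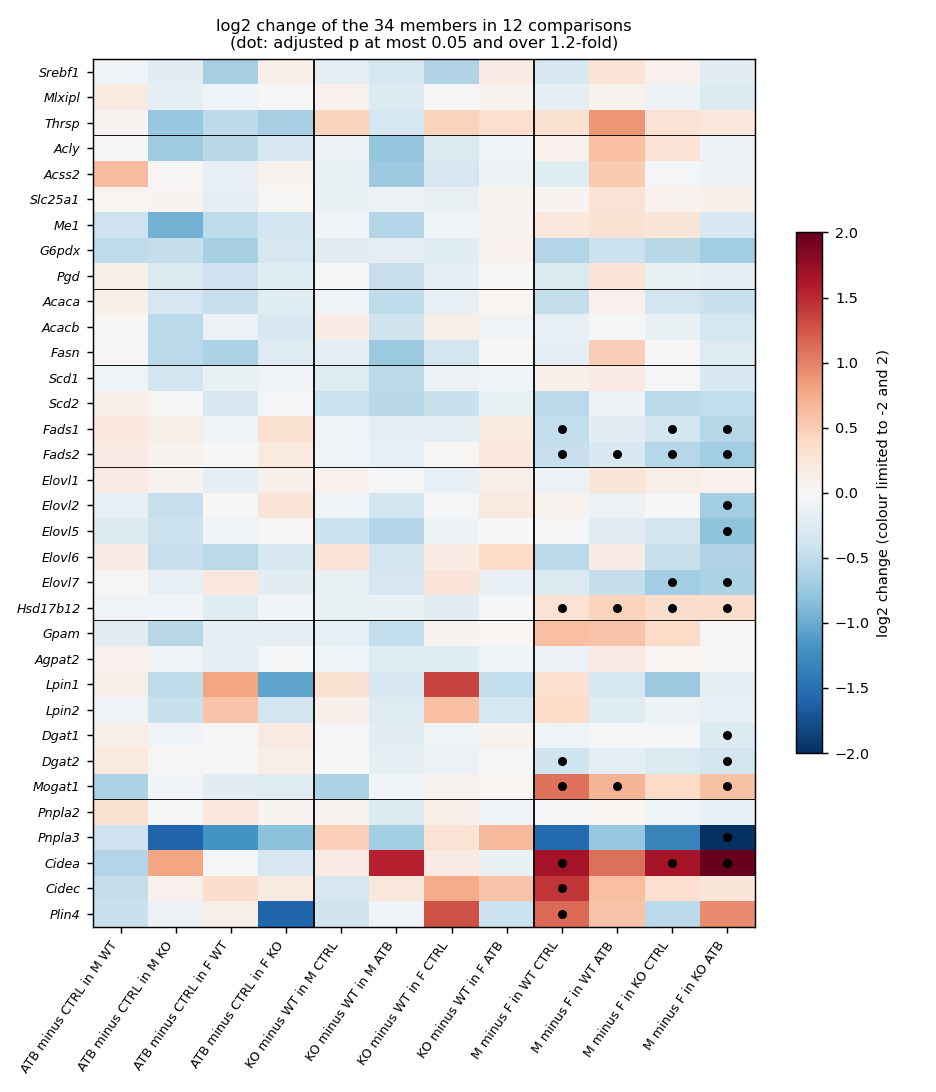
Log2 differences of the 34 members (grouped by role) in the 12 pairwise comparisons. Colour gives the difference, limited to -2 to 2, and dots mark calls. All 27 dots fall in the 4 comparisons of males with females.

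The effect of antibiotics on the module was asked in each sex and genotype. No member was called in any of the 4 comparisons of ATB with control mice by limma. All genes tested gave 1.05% called in WT males, 0.11% in Pxr-/- males, 0.0138% in WT females and 0.0276% in Pxr-/- females. At an unadjusted p under 0.05 there were 2, 7, 6 and 2 members in that order (5.88%, 20.6%, 17.6% and 5.88% of the module, against 18.6%, 7.2%, 10.7% and 11.7% of all genes). Members were lower with ATB in 15, 25, 26 and 22 of 34 cases, with medians of 0.03, -0.20, -0.17 and -0.14 against 0.10, 0.02, -0.06 and 0.05 over all genes. No member had groups without overlap, as had 4.01%, 1.01%, 0.35% and 0.722% of all genes. Mogat1 was called in WT males without ATB replicate 1, and Plin4 in Pxr-/- females without control replicate 3.

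Fasn showed how broad the intervals were. In males its log2 level ran from 15.19 to 17.80 (median 16.56) in WT controls, from 16.35 to 17.11 (median 16.47) in WT ATB mice and from 15.50 to 16.51 (median 15.81) in Pxr-/- ATB mice, and the 5 male Pxr-/- controls were at 15.97, 16.32, 16.36, 16.41 and 17.08. In females it ran from 15.68 to 17.19 (median 17.04) in WT controls, from 15.58 to 16.92 (median 16.09) in WT ATB mice, from 15.72 to 17.44 (median 16.22) in Pxr-/- controls and from 15.71 to 16.37 (median 16.32) in Pxr-/- ATB mice. WT control males spanned more than the other male groups, and every control group overlapped its ATB group. The change with ATB was 0.03 ± 0.30 (95% confidence interval -0.58 to 0.64, adjusted p = 0.97) in WT males, -0.53 ± 0.32 (adjusted p = 0.794) in Pxr-/- males, -0.63 ± 0.30 (95% confidence interval -1.24 to -0.02, adjusted p = 0.462) in WT females and -0.26 ± 0.30 (adjusted p = 0.79) in Pxr-/- females. A change of 1.2-fold in either direction lay inside the interval for WT males.

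Around Fasn, values with ATB were below controls in Pxr-/- males for Acly (-0.72 ± 0.29, adjusted p = 0.654), Me1 (-0.94 ± 0.30, adjusted p = 0.404), Elovl2 (-0.45 ± 0.14, adjusted p = 0.404), Elovl5 (-0.42 ± 0.19, adjusted p = 0.688) and Pnpla3 (-1.58 ± 0.68, adjusted p = 0.679), none of which was called. In WT males the same genes gave -0.03, -0.42, -0.16, -0.27 and -0.41, and the lowest adjusted p was that of Mogat1 (-0.63 ± 0.21, adjusted p = 0.116). In WT females Srebf1 gave -0.66 ± 0.29 (adjusted p = 0.435). In Pxr-/- females Plin4 gave -1.59 ± 0.40 (adjusted p = 0.0773), with control mice from 8.82 to 10.50 (median 10.01) and ATB mice from 6.99 to 9.32 (median 8.32). For comparison outside the module, 8 of 22 genes of sterol synthesis, a route that shares acetyl-CoA and is controlled by the related factor SREBP-2, were called higher with ATB in WT males, where 1.05% of all genes were called.

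**Figure D3:**
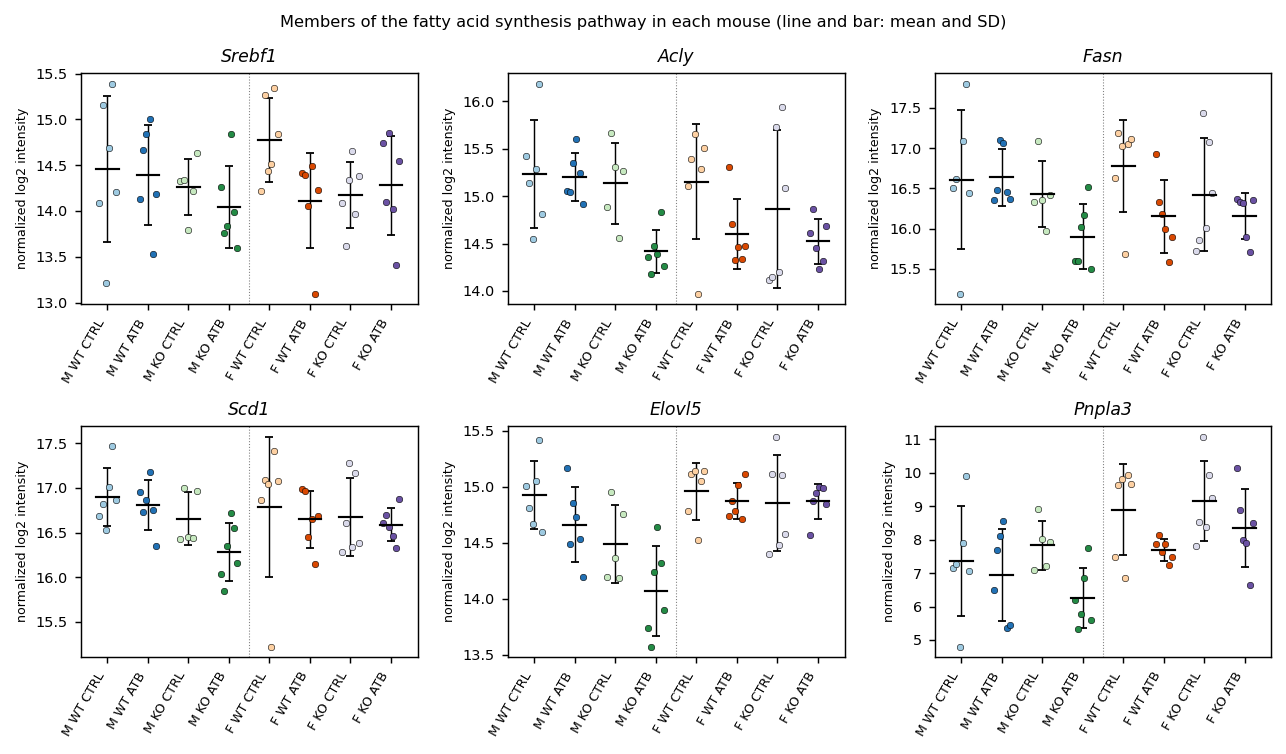
Log2 signal (normalized, wash batch removed) of Srebf1, Acly, Fasn, Scd1, Elovl5 and Pnpla3 in each mouse of the 8 groups. Points are mice and bars are group means with SD. Groups that differ in 1 factor overlap, except for Acly in ATB males, where all 6 Pxr-/- mice lie below the 6 WT mice.

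Loss of Pxr was compared within each sex and treatment, and no member was called in any of the 4 comparisons by limma. The share of all genes called was 0.189% in control males, 0.878% in ATB males, 3.19% in control females and 0.207% in ATB females. Unadjusted p-values under 0.05 were found for 2, 12, 4 and 2 members (5.88%, 35.3%, 11.8% and 5.88%, against 5.19%, 22.9%, 21.5% and 5.17% of all genes). The comparisons of ATB and of genotype share the Pxr-/- ATB males and other groups, so they are not independent of each other. In ATB males 32 of 34 members were below WT, with a median of -0.33 against -0.13 over all genes. In control males 24 members were below WT (median -0.08, all genes -0.04), in control females 20 (-0.09, all genes -0.12) and in ATB females 15 (0.02, all genes -0.0006).

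In ATB males, Acly and Acss2, which supply cytosolic acetyl-CoA from citrate and acetate, were the 2 members whose groups did not overlap (5.88% of the module, against 3.36% of all genes). Acly ran from 14.91 to 15.61 (median 15.15) in WT and from 14.18 to 14.83 (median 14.37) in Pxr-/- mice (-0.79 ± 0.27, 95% confidence interval -1.33 to -0.24, adjusted p = 0.113). Acss2 ran from 14.26 to 14.68 (median 14.44) in WT and from 13.29 to 13.99 (median 13.81) in Pxr-/- mice (-0.72 ± 0.31, 95% confidence interval -1.34 to -0.10, adjusted p = 0.17). Both adjusted p-values missed the threshold with all 8 groups in the model, and both genes were called when the model held only the groups compared. Leaving out single mice gave 1 call, of Cidea without WT replicate 1 or Pxr-/- replicate 6 and of Elovl5 without Pxr-/- replicate 4. Other differences in ATB males were -0.74 ± 0.30 (95% confidence interval -1.35 to -0.13, adjusted p = 0.155) for Fasn, -0.59 ± 0.18 (95% confidence interval -0.95 to -0.24, adjusted p = 0.0786) for Elovl5 and -0.39 ± 0.14 (adjusted p = 0.117) for Elovl2. Cidea gave 1.56 ± 0.45 (adjusted p = 0.0706) and was not called, with WT ATB males from 5.06 to 7.28 (median 5.45) and Pxr-/- ATB males from 5.74 to 8.76 (median 7.50). In the 3 wash batches, with 1 to 3 mice per group in each, the differences were not alike, with Acly at -0.81, -1.10 and -0.08, Acss2 at -0.82, -0.80 and -0.28, Fasn at -0.91, -0.93 and 0.15, and Elovl5 at -0.99, -0.36 and 0.13.

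In control females, Plin4 ran from 7.94 to 9.34 (median 8.60) in WT and from 8.82 to 10.50 (median 10.01) in Pxr-/- mice (1.28 ± 0.40, 95% confidence interval 0.47 to 2.08, adjusted p = 0.0629). It was called in a model of those 2 groups alone, without WT replicate 6 and without Pxr-/- replicate 3, and Hsd17b12 was called without WT replicate 1. Cidec gave 0.75 ± 0.27 (adjusted p = 0.111) there, and all 5 lipid droplet members had means above WT in Pxr-/- control females. Of the macrophage markers, 9 of 14 were called lower in Pxr-/- control females, with the mean log2 level of the list from 9.66 to 10.3 against 10.6 to 11.4 in WT control females, and their part in these values was not tested. In control males the lowest adjusted p was that of Mogat1 (-0.63 ± 0.22, adjusted p = 0.716). Fasn gave -0.18, -0.36 and 0.01 in control males, control females and ATB females, and Elovl5 in control males gave -0.44 ± 0.19 (adjusted p = 0.997).

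Whether one factor changed the effect of another was tested by 6 interaction terms, and no member was called in any of them by limma. Over all genes, 0.0184% were called for ATB by genotype in males, 0% in females, 0.0414% for ATB by sex in WT, 0.0046% in Pxr-/- mice, 0.023% for genotype by sex in controls and 0.046% with ATB. Members at an unadjusted p under 0.05 numbered 2, 3, 3, 2, 3 and 7 in the same order. These were 5.88%, 8.82%, 8.82%, 5.88%, 8.82% and 20.6% of the module, against 5.03%, 9.43%, 13%, 4.88%, 4.45% and 8.79% of all genes. The lowest adjusted p of a member was 0.347. Elovl2 had an ATB by sex term of -0.70 in Pxr-/- mice (adjusted p = 0.898), Plin4 an ATB by genotype term of -1.70 in females (adjusted p = 0.442) and Cidea a genotype by sex term of 1.69 with ATB (adjusted p = 0.486). Thus the calls made for one sex comparison and not for another were not shown to differ.

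Within groups, most members varied with Fasn from mouse to mouse. Each member's correlation with Fasn was computed over the 47 mice after removing group and batch means, as 33 relations among 21635 genes over which p-values were adjusted. A total of 29 of 33 members had a positive r, with a median of 0.58 against 0.13 over all genes, whose middle 90% ran from -0.23 to 0.47. By a permutation test (two-sided, 100000 permutations), 19 of 33 passed an adjusted p of 0.05, all positive, where 4.1% of all genes passed and 3.91% passed with a positive r. Acaca was closest (r = 0.92, rho = 0.92, p = 1e-05 for both, adjusted p = 0.00212), followed by Elovl6 (r = 0.91), Acly (0.89), Gpam (0.89), Thrsp (0.86), Pnpla3 (0.86), Pgd (0.84), Me1 (0.81) and G6pdx (0.81), where 1e-05 is the smallest p these permutations can give. The 19 thus spanned the supply of acetyl-CoA and NADPH, palmitate synthesis, all 4 desaturases, Elovl5 and Elovl6, Gpam, Dgat2 and Pnpla3, together with Thrsp and Srebf1.

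Srebf1 gave r = 0.60 (rho = 0.57, permutation p = 0.0001 and 9e-05, adjusted p = 0.00945) and Fads2 r = 0.53 (rho = 0.50, permutation p = 0.00065 and 0.00101, adjusted p = 0.0274). Mlxipl (r = 0.40, adjusted p = 0.124), Agpat2 (0.49, 0.0715) and Elovl2 (0.17, 0.585) did not pass. Lpin1, Lpin2 and Pnpla2 had r of -0.09, -0.14 and -0.05, and Plin4 had the most negative value (r = -0.45, rho = -0.42, permutation p = 0.00209 and 0.00561, adjusted p = 0.0506). Without the 2 mice farthest from the median of Fasn, both of them male WT controls, Acaca gave 0.92, Srebf1 0.46, Fads2 0.47 and Plin4 -0.39, and 30 of 33 members kept their sign. Acaca gave 0.92 within males and 0.95 within females, and Srebf1 0.72 and 0.46. After quantile normalization 18 members passed, 17 of them positive, with Fads1 (adjusted p = 0.0532) and Fads2 (0.0654) no longer passing and Plin4 passing as negative (r = -0.51, adjusted p = 0.0178), where 2.34% of all genes passed with a positive r. Among the 10 genes with the highest r, 7 were members, and the others, named after their values were seen, included Pnpla5 (0.87), a lipase of the same family as Pnpla3, and Pklr (0.85), the liver pyruvate kinase.

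**Figure D4:**
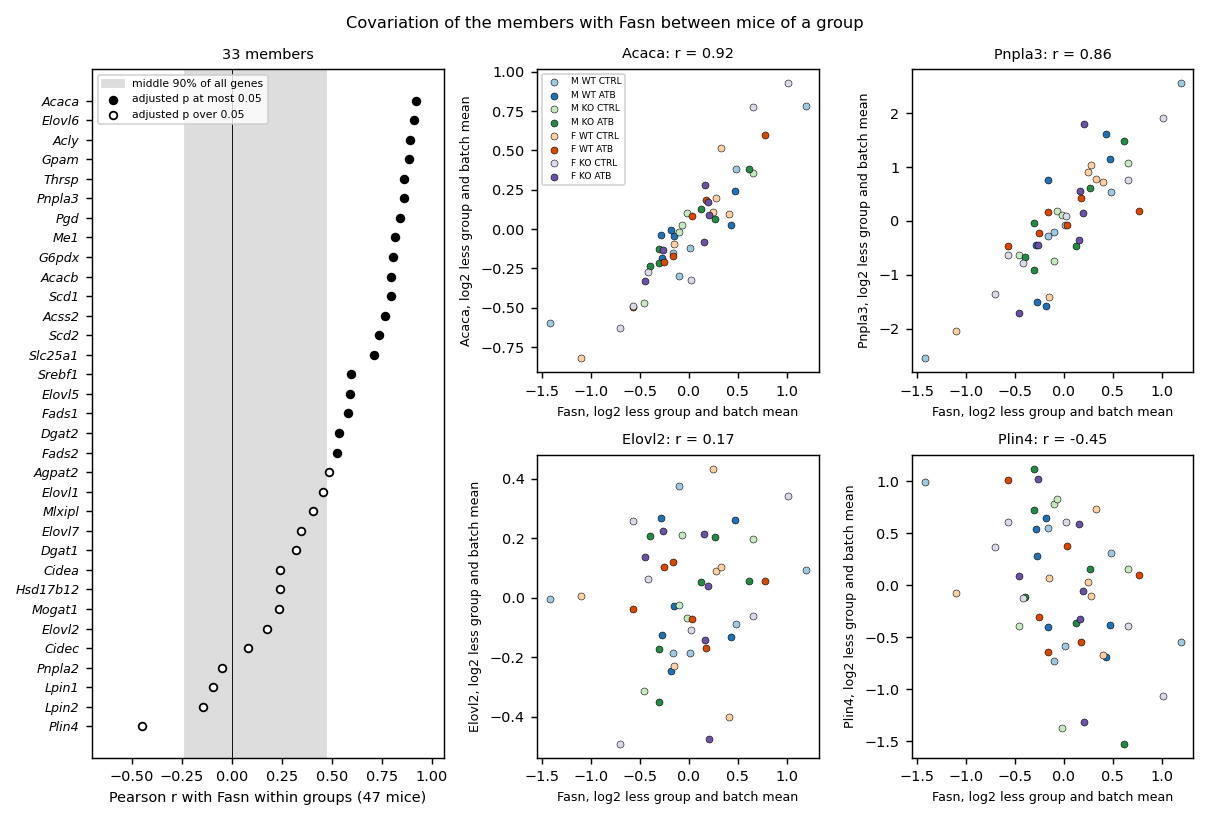
Correlation with Fasn of the other 33 members over 47 mice, after removal of group and batch means, with a grey band for the middle 90% of all genes, and scatter plots of 4 members (log2 deviations from the group and batch means). Acaca (r = 0.92) and Pnpla3 (0.86) rise with Fasn, Elovl2 (0.17) does not follow it, and Plin4 (-0.45) runs against it.

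A further 73 tested genes of the same pathways were set in 5 lists, of glycolysis and NADPH supply (16 genes), elongation and desaturation (10), fatty acid activation and triglyceride synthesis (14), lipid droplets and lipolysis (15) and regulators of lipogenesis (18). None was called with ATB by limma. An unadjusted limma p under 0.05 was found for 14, 12, 4 and 7 of the 73 in WT males, Pxr-/- males, WT females and Pxr-/- females. The shares of all genes under that p were 18.6%, 7.2%, 10.7% and 11.7%. For loss of Pxr, Acsl4, an acyl-CoA synthetase with a preference for arachidonic acid, was lower in ATB males (-0.57, adjusted p = 0.0294). Hacd4, a dehydratase of the elongation cycle, was lower in control females (-0.62, adjusted p = 0.0236), from 6.40 to 6.86 in WT and 5.69 to 6.36 in Pxr-/- mice, which do not overlap. Bscl2, the droplet-forming protein seipin, was also lower there (-0.29, adjusted p = 0.0421). The 1 call in ATB males was 1.37% of the 73 genes, against 0.878% of all genes. The 2 calls in control females were 2.74%, near the 3.19% of all genes. None of the 73 was called in control males or ATB females. Between the sexes, 3 were higher and 19 lower in males in WT controls (30.1% of the 73), 6 and 8 in WT ATB (19.2%), 4 and 9 in Pxr-/- controls (17.8%) and 4 and 19 in Pxr-/- ATB mice (31.5%). The shares of all genes called in either direction were 32.1%, 12.5%, 16.1% and 25.8% in the same order. Acsl6 was among the genes called higher in males in all 4 comparisons. It was above background on 0 of 6 arrays in each female group, and on 5 of 6 in WT ATB and 6 of 6 in Pxr-/- ATB males. It thus passed the filter on dim probes through male arrays alone, and its calls are a description and not an independent test.

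Among these genes was Elovl3, an elongase of saturated and monounsaturated chains, which ran from 12.6 to 14.8 in males and from 6.10 to 8.86 in females over all groups and gave -0.62 ± 0.35 (adjusted p = 0.339) with ATB in WT males. Agpat9, a glycerol phosphate acyltransferase of the endoplasmic reticulum, was lower in males, with differences of -2.01, -3.00, -2.70 and -2.81 in WT control, WT ATB, Pxr-/- control and Pxr-/- ATB mice. Fitm1, a droplet-forming membrane protein, was higher in males (2.67, 2.60, 1.72 and 2.36). Mpc1 and Mpc2, the subunits of the mitochondrial pyruvate carrier, were lower in males in all 4 comparisons, with differences of -0.52, -0.48, -0.42 and -0.65 for Mpc1 and of -0.68, -0.51, -0.58 and -0.82 for Mpc2.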

How the data were processed

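Livers of 47 mice were hybridised to one-colour Agilent arrays. The authors scanned them and extracted spot intensity with Feature Extraction 10.10.1.1, per the submitters' processing notes, and deposited one file of raw intensities per array. The deposited series table holds the authors' log2 values of the same arrays after their own filter and CrossNorm normalization, and it was used as an alternative.

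From the raw files, log2 of the median signal was taken, spots of a probe were averaged and 422 non-uniform spots were left out. A probe was kept where 5 or more arrays of some group (1 was enough) showed it above background. Wash batch was removed with group means kept, and the arrays were normalized by CrossNorm, in which 1 array per group is stacked, quantile normalized and averaged over 300 draws (seed 1). The filter and the stacking rule were set here where the sources left details out. CrossNorm keeps shifts of whole groups, which quantile normalization removes. The model of limma 3.58.1 in R 4.3.3 held the 8 groups and wash batch, with Benjamini-Hochberg adjustment over all tested probes. Calls needed an adjusted p of at most 0.05 and a fold change above 1.2. Intervals are 95% confidence intervals, two-sided. The number of arrays limits the precision.

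Correlations with Fasn used deviations from group and batch means, with 100000 permutations and adjustment over all genes tested. Values by group were given for members called in at least 1 comparison, for Fasn, Elovl2 and Elovl5, and for members with disagreeing probes. Counts were given for other lists. The members and lists were chosen with earlier results of these data known. The fitting and correlation steps were tested on simulated data with known changes. Alternatives were quantile normalization, the 75th percentile of processed signal, normexp, the authors' log2 values, the filter, the wash batch, slide, the replicate number as a block, a model of the compared groups alone, any probe of a gene, and each mouse left out in turn. Figures were drawn with matplotlib 3.10.9 in Python 3.11.15.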

Additional observations from a re-analysis of the deposited data

Results flagged for a closer look

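In 17 of 272 sets of 1 member in 1 group, 1 mouse lay apart from the others, with a gap to its nearest neighbour that exceeded Dixon's 95% critical value as a share of the group's range. Chance alone would give about 1 in 20, or 13.6. Most of the 17 came from 3 mice. Female WT control replicate 4 was the lowest of its group for Thrsp (share 0.758), Acly (0.671), Acacb (0.656), Fasn (0.632) and Scd1 (0.749). For Fasn it stood at 15.68 where the nearest mouse was at 16.63. Female WT ATB replicate 5 was the lowest for Srebf1 (0.688), Scd2 (0.67), Fads1 (0.75) and Elovl1 (0.629), with Srebf1 at 13.10 against 14.06 in the nearest mouse. Male WT control replicate 5 was the highest for Me1 (0.712), Pgd (0.636), Fads2 (0.708) and Cidec (0.654), with Fads2 at 12.26 against 11.90 in the nearest mouse.

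The other 4 were single cases. Thrsp was highest in female WT ATB replicate 1 (0.637), Fads2 lowest in male Pxr-/- control replicate 5 (0.711), Elovl5 lowest in female Pxr-/- ATB replicate 1 (0.645) and Lpin2 lowest in female Pxr-/- control replicate 1 (0.633).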

How the results depend on the processing

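The 27 calls between the sexes kept their direction wherever an alternative gave them a value, and 9 passed the threshold under all 10 alternatives and without any single mouse: Cidec and Mogat1 in WT controls, Hsd17b12 in WT ATB mice, Fads2 in Pxr-/- controls, and Fads1, Fads2, Elovl2, Elovl5 and Hsd17b12 in Pxr-/- ATB mice. Cidea and Elovl7 were not tested with probes above background on all 47 arrays, and Cidea in WT controls and Pxr-/- ATB mice passed under the other 9. Cidea came past the main filter through male arrays alone, so its passes are a description and not an independent test. The count of members called in WT ATB mice moved from 3 to 6 with the 75th percentile of processed signal, to 6 with only the groups compared in the model and to 5 when any probe of a gene could be called. In Pxr-/- controls it moved from 5 to 3 with normexp background correction, to 3 with probes above background on all 47 arrays, where Cidea and Elovl7 dropped out, and to 2 with only the groups compared. With only the groups compared, genotype gave 2 calls in ATB males (Acly and Acss2) and 1 in control females (Plin4) in place of 0. Over all alternatives and mice left out, the counts for ATB, genotype and the interactions were 0 in 379 of 389 values. The cause of these shifts was not tested. A model of 2 groups holds fewer arrays and takes the spread from those groups alone.

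With each mouse left out in turn, counts between the sexes ran from 6 to 12 in WT controls (6 without male replicate 3, 12 without male replicate 5), 1 to 4 in WT ATB mice, 3 to 6 in Pxr-/- controls and 8 to 11 in Pxr-/- ATB mice (8 without female replicate 6). They ran from 0 to 1 for ATB in WT males and in Pxr-/- females and for genotype in ATB males and in control females, and stayed at 0 to 0 for the other comparisons and interactions. The replicate number as a block gave 8, 3, 5 and 11 calls between the sexes and changed no other count, and 19 of 47 arrays correlated best with an array of their own number. The deviations of same-numbered mice correlated from -0.37 to 0.56 over 161 pairs (median 0.01, 52 over 0.1), so the numbers were not taken to pair the mice. With quantile normalization 18 rather than 19 members passed for their correlation with Fasn. Dim probes bear most on Cidea in females and on Elovl7.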

Other observations

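Over the 8 groups, Pxr-/- ATB males had the lowest mean level for 17 of the 34 members, where they were lowest for 27.3% of all genes tested. After quantile normalization they were lowest for 14 of 34 members against 13.1% of all genes. WT control females had the highest mean for 10 members against 40% of all genes, and after quantile normalization for 7 members against 14.9%.

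Of 12 genes that respond to fasting, 4 were called lower in males in WT controls, 6 in WT ATB, 5 in Pxr-/- controls and 9 in Pxr-/- ATB mice, and none higher, with medians of -0.35, -1.06, -0.81 and -1.07. All genes were called lower in males at 29.9%, 9.03%, 13.6% and 23.2% in these comparisons, so that the count in WT controls was near the share of all genes. Of 15 tested clock genes, 1 was lower in WT controls, 1 higher in WT ATB mice and 0 were called in the Pxr-/- comparisons by limma, where 0 also had an unadjusted p under 0.05. The 22 genes of sterol synthesis gave 6 lower in males in WT controls, 7 higher in WT ATB, 4 lower in Pxr-/- controls and 1 lower in Pxr-/- ATB mice. Of all genes, 3.44% were called higher in males in WT ATB mice, and the 6 in WT controls were near the 29.9% of all genes called lower there.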
